A study of Mus musculus with 3 samples.

Results

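The genes described here encode the ATF and BATF partners of activator protein-1 (AP-1), the transcription factor at the centre of a study of soluble micrograft (MG) treatment in wounded skin cells. The 10 genes Atf1, Atf2, Atf3, Atf4, Atf5, Atf6, Atf7, Batf, Batf3 and Jdp2 were chosen by name, and all 10 had a row among the 20322 genes with reads. Their transcripts were measured by RNA-seq in 3 libraries, labelled replicates 1, 2 and 3 of 1 condition. The cells were primary fibroblasts grown from digested tail tips of C57BL/6 mice, scratched with a pipette tip and given the diluted soluble MG, a cell-free extract of minced mouse skin, together with PD0325901 for 5 h. PD0325901 inhibits MEK, the kinase that activates ERK. The labels give neither the age of the mice nor which animals each culture came from. Cultures without MG or without the inhibitor are not analysed here, and no level below is a response to either.

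AP-1 is a dimer of basic leucine zipper (bZIP) proteins. Jun proteins pair with Fos proteins on AP-1 sites, and they also pair with members of the ATF, BATF and JDP2 families, some of which favour the related cyclic AMP response element (CRE). ATF4, ATF5 and ATF3 are known from the integrated stress response, in which phosphorylation of the initiation factor eIF2 lowers general translation while raising that of ATF4 and ATF5, so that transcript levels do not give the amounts of these proteins. ATF6 is held in the membrane of the endoplasmic reticulum (ER) until the proteases encoded by Mbtps1 and Mbtps2 release its active part. ATF2 and ATF7 are substrates of stress-activated MAP kinases, ATF1 is a relative of CREB, and ATF3 and JDP2 often act as repressors. BATF and BATF3 are best known from lymphocytes and dendritic cells, where they bind DNA with Jun proteins and with IRF4 or IRF8.

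Reads on genes numbered 22540518, 27037783 and 17244505 in replicates 1, 2 and 3. The values are normalized counts, that is, reads divided by 1 size factor per library, and a count of 0 allows up to 3 reads, which equalled between 2.11 and 3.56 normalized counts. The 8 fibroblast markers checked, among them Col1a1, Col1a2 and Vim, were all detected, meaning at least 10 normalized counts in every library. Lum differed widely between the libraries, at 5073, 289 and 1164 normalized counts in replicates 1, 2 and 3. Keratinocytes and endothelial cells left little RNA, as 1 of 5 keratinocyte markers (Krt10) and 1 of 5 endothelial markers (Egfl7) were detected. This does not extend to leukocytes, whose markers, treated below, reached a sum of 670 in replicate 3, mostly from Lyz2. The keratinocyte markers summed to 81.6, 39.5 and 34.4 normalized counts, with Krt1 and Krt15 at 0 throughout and Krt5 and Krt14 at no more than 2 reads in a library. The endothelial markers summed to 90.3, 244 and 55.7, of which Tek made up 185 in replicate 2. The other endothelial markers did not share that peak, as Egfl7 had 69.5, 53.6 and 49.8 normalized counts, Pecam1 had 11, 5 and 2 reads, Kdr had 5, 2 and 0, and Cdh5 had 0, 0 and 1. Nothing in the labels ties the replicates to separate animals, so the SDs describe the spread between these 3 libraries.

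Of the 10 genes, 8 were detected in the MG + PD0325901 libraries, and Batf and Batf3 were not. Atf4 (chromosome 15, 80255184 to 80257541, plus strand, GRCm38) encodes the main transcriptional effector of the integrated stress response and had the highest level. It had 11097, 7302 and 9330.4 normalized counts in replicates 1, 2 and 3, averaging 9243 ± 1899 (SD, n = 3). Replicate 1 was the highest and replicate 2 the lowest, a 1.52-fold range. With 7872 or more reads in each library, counting error was at most 1.13%, far below the coefficient of variation of 20.5%.

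Atf5 (chromosome 7, 44812256 to 44816658, minus strand), whose protein is under translational control like that of ATF4, followed with 5834, 4789.9 and 5077 normalized counts. The mean was 5234 ± 540 (SD, n = 3), and the libraries lay within 1.22-fold of each other. Both genes stood high in the transcriptome, as the mean of Atf4 exceeded those of 97.5% of the 12204 detected genes and that of Atf5 those of 94.9%. The exons of Atf5 overlap those of Nup62 and Il4i1 on the opposite strand by at most 4.11% of their length. The strand setting of the read counting is not given in the sources used here.

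Atf3 (chromosome 1, 191170296 to 191218039, minus strand) encodes a stress-induced factor that is itself a known target of ATF4. It had 225, 64.8 and 149 normalized counts, from 259, 92 and 126 reads. The mean was 146 ± 80.1 (SD, n = 3), a coefficient of variation of 54.7% against a counting error of 10.4% in the library with the fewest reads. Replicate 1 was 3.47-fold above replicate 2, and replicate 3 lay between them. The 95% Poisson intervals of the 3 libraries, which cover counting error only, did not overlap, as they ran from 198 to 254, from 52.3 to 79.5 and from 124 to 178 normalized counts.

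Atf6 (chromosome 1, 170704674 to 170867771, minus strand), the ER membrane sensor, had 953, 1196 and 1125 normalized counts, averaging 1092 ± 125 (SD, n = 3). Here replicate 2 was the highest and replicate 1 the lowest, at 1.25-fold. This is the reverse of the order of these 2 libraries for Atf4, Atf5 and Atf3.

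Jdp2 (chromosome 12, 85599027 to 85639878, plus strand) encodes the Jun dimerization protein, which pairs with Jun proteins and ATF2 and usually represses. It was the steadiest of the 8 detected genes, with 1414, 1400.1 and 1314 normalized counts, averaging 1376 ± 53.8 (SD, n = 3), within 1.08-fold of each other. Its coefficient of variation of 3.91% was close to the counting error of 3.00%. Only 3.06% of the detected genes had a smaller SD of log2(normalized count + 1). With libraries scaled to equal totals its range was 1.14-fold.

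Atf1 (chromosome 15, 100227819 to 100261244, plus strand), the CREB relative, had 1029, 836 and 829.7 normalized counts, averaging 898 ± 113 (SD, n = 3). Replicate 1 stood above the other libraries, which were nearly equal. Atf2 (chromosome 2, 73816509 to 73892639, minus strand), the ATF that pairs with c-Jun on CRE-like sites, had 696, 844 and 538 normalized counts, averaging 693 ± 153 (SD, n = 3). Its paralog Atf7 (chromosome 15, 102525946 to 102625464, minus strand) had 748, 929 and 842, averaging 839.5 ± 90.9 (SD, n = 3). Replicate 2 was the highest library for both paralogs, while the lowest was replicate 3 for Atf2 and replicate 1 for Atf7. Exons of Atf7 share 11.7% of their length with Gm28047 on the same strand, and Gm28047 was listed at 0 in every library. How reads in the shared part were assigned was not tested.

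Batf (chromosome 12, 85686669 to 85709087, plus strand) had 1, 2 and 1 reads, equal to 0.868, 1.41 and 1.19 normalized counts. Batf3 (chromosome 1, 191097847 to 191108945, plus strand) had 2, 1 and 0 reads, equal to 1.74, 0.705 and 0 normalized counts. Each of these values lay at or below the limit of 3 reads in its library, so neither transcript was detectable at this depth. Over all libraries 4 reads fell on Batf and 3 on Batf3. The IRF partners of BATF proteins were also low, with Irf4 at 0 reads in every library and Irf8 at 3, 1 and 11 reads. Of 10 leukocyte markers 1 was detected, and their summed level was 148, 78.2 and 670 normalized counts in replicates 1, 2 and 3, with the T cell gene Cd3e and the dendritic cell gene Itgax at 0 in all libraries. Lyz2, a myeloid gene, carried most of that sum, with 123, 62.7 and 601. The library with the most leukocyte marker RNA, replicate 3, thus had 1 read of Batf and none of Batf3.

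**Figure D1:**
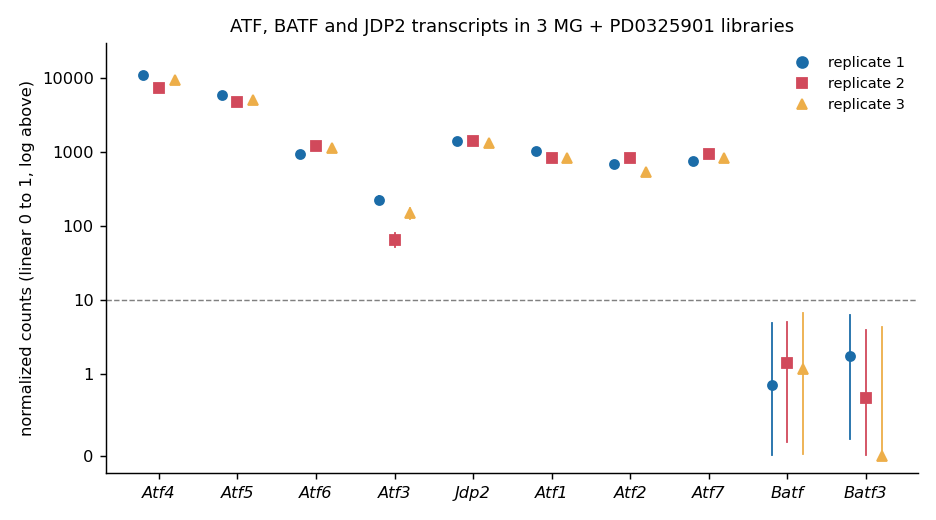
Normalized counts of the 10 genes (vertical axis, linear from 0 to 1 and logarithmic above) in replicates 1, 2 and 3 of MG + PD0325901, with vertical lines for 95% Poisson intervals and a dashed line at 10, the minimum for detection. Atf4 and Atf5 lie highest in every library, Atf3 is the lowest of the detected genes, from 64.8 to 225, and Batf and Batf3 lie below 2.

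Several of these genes lie next to each other. Batf3 and Atf3 are separated by 61.4 kb on chromosome 1, with Fam71a, listed at 0 in every library, as the single coding gene between them. Jdp2 and Batf lie 46.8 kb apart on chromosome 12, with no coding gene between them, and Fos ends 122 kb before Jdp2. The neighbours were at very different levels. Jdp2 had 641 ± 25.03 normalized counts per kb of exon (SD, n = 3), Fos 18.5 ± 6.57 and Batf 0.821 ± 0.193, and Jdp2 was between 25.01-fold and 44.6-fold above Fos per kb within the same library.

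Promoter sequences were read because ATF proteins are known to bind CRE-like sites in the promoters of their own family. RefSeq starts on GRCm38.p6 were found for 9 of the 10 genes, with 12 starts in all. Atf6 was not among them. The 250 bases before each start were searched on both strands for the CRE (TGACGTCA), a variant of it (TGACGTNA), its shorter core (TGACG), the AP-1 site (TGANTCA), the core of the element bound by ATF4 with C/EBP proteins (TGATGNAA) and the ER stress element (ERSE). The variant contains the shorter core, and the CRE is a form of the variant, so a match to one can be a match to another. The windows below, 30 bases each and written 5′ to 3′ on the strand of the gene, hold the matches in capitals, and positions count back from -1, the base before the start.
Atf3, ATF4-C/EBP core at -110 to -103, chr1:191183425-191183454, minus strand: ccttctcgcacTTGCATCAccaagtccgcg
Atf3, CRE variant at -10 to -3, chr1:191183334-191183363, minus strand: cctggaagctattaatagcaTTACGTCAgc
Jdp2, ATF4-C/EBP core at -33 to -26, chr12:85599372-85599401, plus strand: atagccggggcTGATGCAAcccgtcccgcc
Jdp2, CRE core at -114 to -110, chr12:85599290-85599319, plus strand: tccgtccccctcTGACGtgtggagctggca
Atf4, CRE core at -12 to -8, chr15:80255154-80255183, plus strand: ggcagcttcggctttgacCGTCAgagcttt
Atf1, CRE core at -90 to -86, chr15:100227757-100227786, plus strand: gtgaccacgcggTGACGcagcacgccggcg
Batf, CRE core at -98 to -94, chr12:85686610-85686639, plus strand: tttctaacttgtTGACGtttccgcccatgt

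The ATF4-C/EBP core was present in the bases searched before the start of Atf3 and before the Jdp2 start at 85599416. The Jdp2 windows shown lie downstream of another searched Jdp2 start, at 85599105, and overlap no exon in the GENCODE annotation. The ATF4-C/EBP core occurred in 3.45% of the 32851 promoters searched, a share per promoter, whereas Jdp2 had more than 1 start searched. The CRE variant was found in Atf3 alone of these genes and in 2.52% of all promoters. The CRE core was found for 5 of the 9 genes, against 17.8% of all promoters, although Jdp2 and Atf5 had more than 1 start searched. None of the 9 held the full CRE, the AP-1 site or the ER stress element, which occurred in 1.55%, 6.75% and 0.113% of all promoters. The window around the CRE variant of Atf3 overlaps an exon of Atf3 in the GENCODE annotation, which also places starts further upstream. Both genes with an ATF4-C/EBP core encode small bZIP proteins that often act as repressors. Between the libraries, Atf3 was the most variable of the 8 detected genes and Jdp2 the least. Any relation of this spread to the matches was not tested. A match is a description of the sequence, and binding was not measured.

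Levels of different genes were compared per kb of exon, since longer transcripts collect more reads. In this unit Atf4 had 3920 ± 805 and Atf5 2626 ± 271 normalized counts per kb (SD, n = 3). Atf4 was above Atf5 in all 3 libraries, by 1.61-fold, 1.29-fold and 1.55-fold in replicates 1, 2 and 3, and their ranges did not overlap. Next came Jdp2 with 641 ± 25.03, Atf1 with 294 ± 37.1 and Atf6 with 118 ± 13.5 normalized counts per kb (SD, n = 3). These first 5 places were kept in each library, with the exception of replicate 1, where Atf3 stood above Atf6. Atf2 with 84.6 ± 18.7, Atf7 with 76.4 ± 8.27 and Atf3 with 67.9 ± 37.2 normalized counts per kb (SD, n = 3) had overlapping ranges, and no order among them can be read from these libraries. Between Atf6 and Atf2 the gap was slight, as the lowest value of Atf6 was 103.3 and the highest of Atf2 103.1 normalized counts per kb. Batf and Batf3 came last, with overlapping ranges. Per kb of exon the paralogs Atf2 and Atf7 were close, with Atf2 1.25-fold and 1.22-fold above Atf7 in replicates 1 and 2 and at 0.858 of its level in replicate 3. This ratio depends on the length used. The exons cover 8.187 kb for Atf2 and 10.988 kb for Atf7, whereas the longest transcripts have 4.21 and 7.147 kb. By the longest transcript Atf2 ranked 5 and Atf7 7 of the 10 genes.

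Set beside the Fos and Jun genes, Atf4 and Atf5 held the 2 highest levels per kb in every library. Jun, the highest of that group, had 1206 ± 289 normalized counts per kb (SD, n = 3), and Atf4 was between 3.02-fold and 3.52-fold above it in the same library. Jdp2 lay between Fosl2 with 684 ± 22.5 and Junb with 519 ± 265 normalized counts per kb (SD, n = 3). The range of Jdp2 lay just below that of Fosl2 and inside that of Junb. The paper names a stranded library kit, but whether the read counting used the strand is not given. If it did not, reads of exons overlapping on opposite strands were not told apart. Of the exon length of Fosl1 57.2%, and of that of Jund 52.6%, overlaps a gene on the opposite strand (Ccdc85b and Gm11175). Smaller overlaps of this kind were 7.68% for Jdp2 (Gm47863), 7.52% for Junb (Prdx2) and 7.28% for Jun (Junos). How far this lowers or raises the levels of these genes, and with them the shares below, was not tested. Fos and Fosb, at 18.5 ± 6.57 and 3.77 ± 1.31, were below all 8 detected ATF and JDP2 genes in each library. Of the summed level per kb of all 17 genes, the 10 ATF, BATF and JDP2 genes made up 63.6%, 68.1% and 64.0% in replicates 1, 2 and 3. Atf4 alone made up 32.4 ± 1.14% and Atf5 21.99 ± 1.88% (SD, n = 3). These shares describe transcripts, not dimers.

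**Figure D2:**
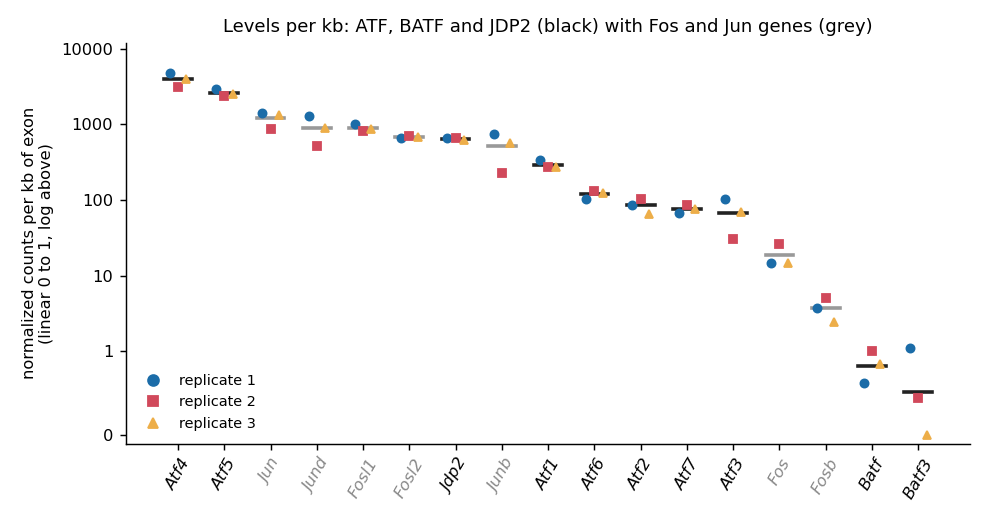
Normalized counts per kb of exon (vertical axis, linear from 0 to 1 and logarithmic above) for the ATF, BATF and JDP2 genes (black names) and the Fos and Jun genes (grey names), with a point per replicate and a bar at the mean of 3 libraries, in order of the mean. Atf4 and Atf5 stand above Jun in every library, Jdp2 sits among the Jun and Fra genes, and Batf and Batf3 are at the lower end.

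The 8 detected genes ranged from Jdp2, nearly equal in all libraries, to Atf3. The highest library was more than 2-fold above the lowest for 1 of the 8, Atf3, against 22% of all 12204 detected genes. Without replicate 2, none of the 8 had such a range, against 6.68% of 12545 genes. Both counts are near the share over all genes. The median range was 1.25-fold over the 8 genes and 1.49-fold over all detected genes, and SDs on the log2(normalized count + 1) scale had a median of 0.17 against 0.30. The sets were not matched for level. The mean of Atf3 was above those of 23.2% of the detected genes, and those of the others among the 8 above at least 58.6%. For 5 of the 8 the SD was below the median of all detected genes. Atf2 and Atf4, at 0.33 and 0.30, lay just above it, and Atf3, at 0.91, lay above 93.8% of the detected genes. Among the Fos and Jun genes, Junb had a similar SD of 0.89, with 1731, 529.9 and 1322 normalized counts, and the same order of libraries as Atf3. Jund and Jun, at SDs of 0.67 and 0.37, were also highest in replicate 1 and lowest in replicate 2.

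**Figure D3:**
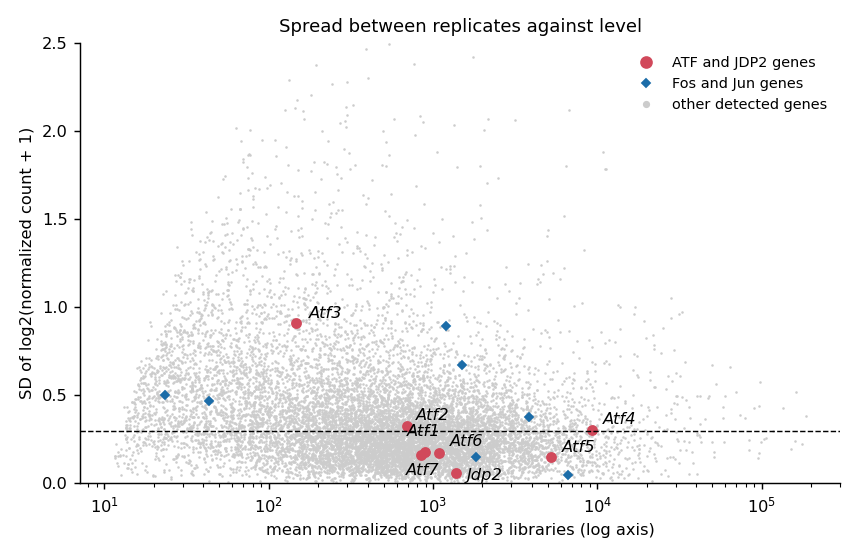
SD of log2(normalized count + 1) over the 3 libraries (vertical axis) against the mean normalized count (horizontal axis, logarithmic) for all detected genes in grey, the 8 detected ATF and JDP2 genes in red and the Fos and Jun genes in blue, with a dashed line at the median SD of 0.30. Atf3 lies far above the line, Jdp2 near the bottom, and 15 genes with an SD above 2.5 are outside the axis.

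The direction in which replicate 2 departed differed between the genes. It was the lowest library for 3 of the 8, Atf3, Atf4 and Atf5, against 37.3% of all detected genes, and the highest for 3, Atf2, Atf6 and Atf7, against 40.6%. Relative to the mean of the other libraries, replicate 2 had a log2 ratio of -1.51 for Atf3, -0.48 for Atf4 and -0.19 for Atf5. The ratios were 0.45 for Atf2, 0.23 for Atf7 and 0.20 for Atf6. Scaled to equal totals, the lowest library of Atf5 became replicate 3 and the highest of Jdp2 replicate 2, and with TMM scaling the lowest of Atf1 became replicate 2. Summed leukocyte markers, mostly Lyz2, were lowest in replicate 2, and Tek alone made the endothelial sum highest there. Their part in these values was not tested. The 3 genes of the integrated stress response shared the order replicate 1, replicate 3, replicate 2, an order held by 21.4% of all detected genes. Atf6 and Atf7 shared the opposite order, held by 22.5%, and replicate 1 was their lowest library, as it was for 34.5% of all detected genes. Replicate 1 was the highest for 5 genes, Atf1, Atf3, Atf4, Atf5 and Jdp2, against 31.5%. Atf1, Atf2 and Jdp2 were lowest in replicate 3, against 28.3%. Atf1 and Jdp2 followed the order replicate 1, 2, 3 (10.1% of all detected genes) and Atf2 the order 2, 1, 3 (18.1%). Replicate 3 was the highest library for none of the 8 genes, against 27.9%.

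**Figure D4:**
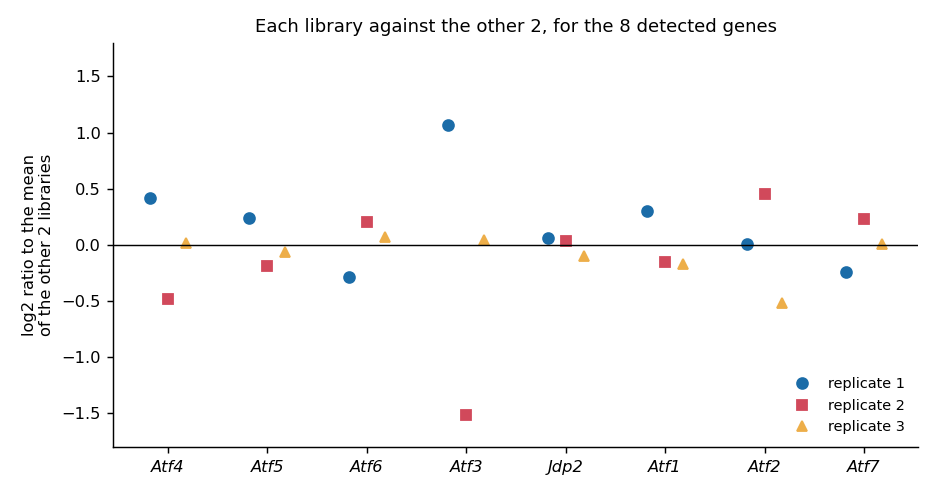
Log2 ratio of each library to the mean of the other libraries (vertical axis, pseudocount 1) for the 8 detected genes, with a symbol per replicate. Replicate 2 lies below 0 for Atf3, Atf4, Atf5 and Atf1 and above 0 for Atf2, Atf6 and Atf7, and the 3 libraries nearly coincide for Jdp2.

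Pairs of libraries were compared gene by gene with two-sided exact binomial tests on the recovered reads, adjusted by the Benjamini-Hochberg method over every gene that had 10 or more reads in both libraries combined. These tests compare libraries of the same condition and cover counting error only. Between replicates 1 and 2, 7 of the 8 genes differed at an adjusted p below 0.05, against 69.1% of all 14771 genes tested. The largest difference was that of Atf3, with a log2 difference (replicate 1 minus replicate 2) of 1.79 and an adjusted p of 2.17e-27. Between replicates 1 and 3 the count was again 7 of 8, against 52%. Replicates 2 and 3 differed for 4 of the 8, Atf2, Atf3, Atf4 and Atf5, against 62.6%. With the expected share taken from total reads, 6 differed between replicates 2 and 3, against 63.2%, as Atf6, Atf7 and Jdp2 were added and Atf5 was lost. With a difference of more than 2-fold also required, Atf3 alone of the 8 passed between replicates 1 and 2, against 20.5% of all genes tested, and between replicates 2 and 3, against 16.5%. None of the 8 passed between replicates 1 and 3, against 9.32%.

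Jdp2 passed in none of the 3 pairs, with adjusted p-values of 0.820, 0.108 and 0.136 for replicates 1 and 2, 1 and 3, and 2 and 3 in the exact binomial tests. Its log2 differences in these pairs were 0.014, 0.10 and 0.091. This depended on the scaling, since with the expected share from total reads Jdp2 passed for replicates 1 and 3 (log2 difference 0.17, adjusted p = 0.00716) and for replicates 2 and 3 (0.19, adjusted p = 0.000740), and not for 1 and 2 (adjusted p = 0.672). With the size factors, Atf1, Atf6 and Atf7 did not pass between replicates 2 and 3, where their log2 differences (replicate 2 minus replicate 3) were 0.0099, 0.089 and 0.14. Batf and Batf3 had too few reads to enter the test.

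The wider pathway was described through lists of other bZIP genes, upstream kinases and proteases, and textbook targets of ATF4 and ATF6. Of 16 other bZIP genes, 15 were detected. Nfe2l1, a regulator of proteasome genes, had 11751, 11465 and 16431 normalized counts and the highest mean of this list, followed by Nfe2l2, the antioxidant regulator, and Mafg, a small Maf protein. Cebpb, a C/EBP factor that can pair with ATF4, had the widest range of the list, 4.18-fold, with 1137, 272 and 897 normalized counts and replicate 2 the lowest. Cebpg, another ATF4 partner, had the same order of libraries as Atf4, an order held by 21.4% of all detected genes. Atf4 was 20.1-fold, 19.22-fold and 18.1-fold above it per kb in replicates 1, 2 and 3. How many other genes hold so even a ratio to Atf4 was not tested. Atf6b, the paralog of Atf6, was above it in each library, with Atf6 at 0.264, 0.282 and 0.240 of its level per kb. Batf2 had at most 1 read in a library and was not detected. Of the 15 detected genes 10 were lowest in replicate 2, against 37.3% of all detected genes.

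All 12 upstream genes were detected, and none had a range above 2-fold, against 22% of all detected genes. They comprise the eIF2 kinases Eif2ak1 to Eif2ak4, their substrate Eif2s1, the ATF6 proteases Mbtps1 and Mbtps2, the ER sensor Ern1, and the stress kinases Mapk8, Mapk9, Mapk11 and Mapk14. Eif2s1 had 2357, 3305 and 2617 normalized counts, Mbtps1 had 2380.1, 2609.9 and 3265, and Mapk14, which encodes p38 alpha, had 1161, 2034 and 1503. Eif2ak4, which encodes the amino acid sensor GCN2, had the widest range, 1.84-fold, with 287, 529 and 378. Replicate 1 held the lowest value of 10 of the 12 genes, against 34.5% of all detected genes, and replicate 2 was the highest for 8, against 40.6%. The median log2 ratio of replicate 2 to the other libraries was 0.33, beside 0.014 over all detected genes.

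The 19 ATF4 target genes were all detected, and 5 had a range above 2-fold, against 22% of all detected genes. Slc3a2, an amino acid transporter chain, was steady at 4935, 4652 and 5199 normalized counts. The serine synthesis genes Psat1 and Phgdh were highest in replicate 2, Psat1 with 1945, 5158 and 2576 and Phgdh with 2699, 5234 and 3507. Trib3, a pseudokinase induced by the pathway, had 927, 382 and 1294, and Nupr1, a stress-induced chromatin protein, had 4399, 1758 and 2751. Targets of the same factor thus departed in both directions in replicate 2. It was the lowest library for 12 of the 19, against 37.3% of all detected genes, and the highest for 5, against 40.6%. Over the list the median log2 ratio of replicate 2 was -0.25, beside -0.48 for Atf4 itself.

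The 14 ATF6 target genes were all detected as well, none with a range above 2-fold, against 22% of all detected genes. Calr had 41597, 32929.8 and 39298 normalized counts and Hsp90b1 had 41626, 27036 and 32166, both ER chaperones. Hspa5, which encodes BiP, differed little, with 26793, 27912 and 26583. The wider ranges were those of Sdf2l1 at 1.76-fold, Dnajb11 at 1.75-fold and Manf at 1.72-fold, each lowest in replicate 2. Of the 14 genes 8 were lowest in replicate 2, against 37.3% of all detected genes. In that library the list had a median log2 ratio of -0.23, whereas Atf6 was highest there.

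**Figure D5:**
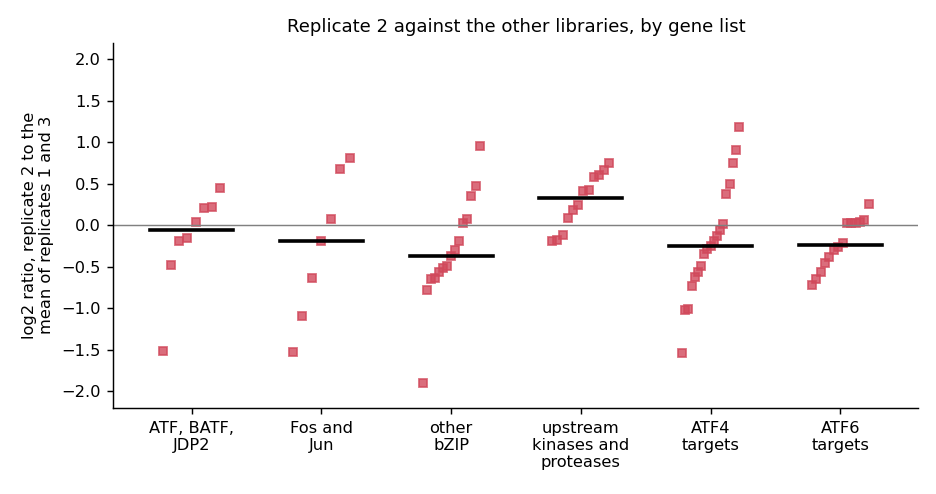
Log2 ratio of replicate 2 to the mean of replicates 1 and 3 (vertical axis, pseudocount 1) for the detected genes of each list, a square per gene and a black bar at the median. The medians are -0.058 for the ATF and JDP2 genes (0.0098 with libraries scaled to equal totals), -0.19 for the Fos and Jun genes, -0.37 for other bZIP genes, 0.33 for the upstream genes, -0.25 for ATF4 targets and -0.23 for ATF6 targets.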

How the data were processed

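RNA-seq of 3 MG + PD0325901 libraries was used. The table holds 3 more columns that match none of the labels, and they were left out. Per the labels and the paper's methods, the authors used FastQC 0.11.5, TopHat2 2.0.13 against mm10, SAMtools 0.1.19.24 and HTSeq 0.5.3p3, and DESeq for normalization. The gene annotation and the strand setting are not given in the sources used here. The deposited signal values are normalized counts, for which reads were divided by a size factor per library. Dividing by the value of 1 read returned whole reads for 100% of the values, within 0.01 of a read.

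Detection required 10 normalized counts in every library, and log2 values used a pseudocount of 1. Exon lengths, positions and overlaps came from GENCODE M21 (GRCm38). Python 3.11.15, numpy 2.4.6, scipy 1.17.1, pandas 2.3.3, matplotlib 3.10.9, R 4.3.3 and edgeR 4.0.16 (TMM factors only) served for computation, after a test on simulated data. The 10 genes and all lists were chosen with earlier results of these data known. Named from each further list were at most 3 genes by highest mean and 3 by widest range, all genes of lists of 5 or fewer, and the Fos and Jun genes. The upstream list was named in full. Cebpg, Atf6b, Batf2, Cd3e, Itgax and the genes beside or overlapping those described were named after their values were seen. The promoter motifs were chosen after these promoters had been searched. Alternatives were other scalings, minimums, pseudocounts, fold limits and lengths, and each replicate left out.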

Additional observations from a re-analysis of the deposited data

How the results depend on the processing

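No paired analysis was possible because the samples belong to 1 condition. Reads were few for Batf and Batf3, with at most 2 in any library. Whether more depth would detect them was not tested. Of the 8 detected genes Atf3 had the fewest reads, 92 in replicate 2, a counting error of 10.4% against its coefficient of variation of 54.7%. The count of genes with a range above 2-fold, 1 as reported, became 2 without a minimum on low values, which let in Batf3, 0 with a minimum of 100 normalized counts, which removed Atf3, and 3 with a 1.5-fold limit, which let in Atf2 and Atf4. Leaving out each replicate in turn gave 0 to 1, with 0 without replicate 2. In the order per kb, 2 genes changed place with the length of the longest transcript (Atf2 and Atf6), 4 without division by length (Atf1, Atf2, Atf6 and Atf7), and between 0 and 3 with a replicate left out, where leaving out replicate 2 placed Atf3 above Atf2 and Atf7. Requiring a 2-fold difference lowered the calls among the 8 genes to 1 between replicates 1 and 2, 0 between replicates 1 and 3 and 1 between replicates 2 and 3, by construction. With the expected share from total reads, the calls between replicates 2 and 3 became 6 in place of 4, with Atf6, Atf7 and Jdp2 added and Atf5 lost. Between replicates 1 and 3 the count stayed at 7, with Jdp2 added and Atf7 lost. Scaled to equal totals, the median log2 ratio of the 8 genes in replicate 2 turned from -0.058 to 0.0098. Replicate 2 was lowest for 3 genes as reported, 2 with equal totals and 4 with TMM scaling. The means of the 10 genes moved by less than 1 SD under each scaling, and with a replicate left out a mean of 3 values cannot move further.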
